A study of Mus musculus with 23 samples.

Results

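Transcripts of 8 sodium and calcium channel subunits were followed in the left ventricle of mice that breathed e-cigarette aerosol. The genes were Scn4a, Scn4b, Scn7a, Cacna1c, Cacna1g, Cacna1h, Cacnb2 and Cacna2d1, chosen by name and read by their Ensembl gene ID, 8 of the 49315 genes in the table of counts. All 8 were measured, and all 8 passed the filter on low counts, which kept 15500 genes. The mice were of the FVB strain and were exposed for 4 hours a day, 5 days a week, over 3 months, from an age of 3 weeks or of 3 months. Air groups breathed filtered air, vehicle groups an aerosol of the e-cigarette vehicle without nicotine, and nicotine groups an aerosol of the vehicle with nicotine. Sample titles abbreviate the vehicle as PGVG at the 3-week start and as PG at the 3-month start, and the titles do not tell whether the vehicles differed. There were 4 libraries in each group except 3-week vehicle, which had 3, for 23 in all, and they are named here by the replicate numbers of their labels.

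Library totals ran from 12297955 to 17821550 counts. Separate animals are not stated for the libraries, and p-values measure only how far these samples spread, a spread that may be technical. Mice that started younger were also younger at the end, so the starting age and the final age cannot be told apart, and no batch is given. The common coefficient of biological variation was 0.234 over the 11 libraries of the 3-week start and 0.105 over the 12 of the 3-month start. Markers of ventricular cardiomyocytes were high in every library, with a mean log2 level between 12.7 and 13.0. Of these 8 markers 3 rose (Myl2, Myl3 and Tnni3) and 3 fell (Myh6, Actc1 and Actn2) with vehicle at the 3-week start. There 9.27% of all genes rose and 6.92% fell in a fit of all 23 libraries. In the 3-week libraries fitted alone 0 genes passed. In the 3-month libraries fitted alone, Myl2, Myl3 and Tnni3 rose and Myh6, Actc1 and Ttn fell with vehicle, where 18.7% of all genes were called. Nicotine against vehicle moved each of these genes the other way, where 16.6% of all genes were called. In bulk tissue, fewer cells of a type and less RNA per cell cannot be told apart.

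Voltage-gated channels set the electrical rhythm of the heart. Sodium channels carry the rapid upstroke of the action potential: an alpha subunit forms the pore and beta subunits modify its gating and anchoring. Calcium entry through the L-type channel follows, sustains the plateau and triggers calcium release from the sarcoplasmic reticulum, which starts contraction. The L-type channel is built from a pore subunit, an intracellular beta subunit and an extracellular alpha2delta subunit, whereas T-type channels open at more negative voltages and are best known from pacemaker and conduction tissue and from the fetal heart.

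In this set Scn4a encodes a sodium channel pore best known from skeletal muscle, Scn4b a sodium channel beta subunit, and Scn7a an atypical alpha subunit known from glia and Schwann cells that is linked to the sensing of sodium levels. Cacna1c encodes the pore of the cardiac L-type channel, Cacnb2 its main cardiac beta subunit and Cacna2d1 its alpha2delta subunit. Cacna1g and Cacna1h encode pores of T-type channels, and Cacna1h is also known from vascular smooth muscle. No other annotated gene shares exons with Scn4a, Scn4b, Scn7a, Cacna1c, Cacna1g or Cacna2d1 in the GENCODE annotation, and the genes that share exons with Cacna1h and Cacnb2 had at most 2 counts in any library.

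Of the 8 genes, 6 have a listed start in the RefSeq promoter table, and 4 of those have a single start. The 250 bases before that start are shown for Scn4a, Scn4b and Cacna2d1, whose levels moved together across libraries, and for Scn7a, which did not move with them. Each is given on the strand of the gene, from RefSeq on GRCm38.p6. Capitals mark matches, on either strand, to the E-box CANNTG, the M-CAT element CATTCC, the GATA site AGATAA, the GC box GGGCGG or the TATA box TATAAA, where neighbouring matches may overlap.
Scn4a, chr11:106349391-106349640, minus strand: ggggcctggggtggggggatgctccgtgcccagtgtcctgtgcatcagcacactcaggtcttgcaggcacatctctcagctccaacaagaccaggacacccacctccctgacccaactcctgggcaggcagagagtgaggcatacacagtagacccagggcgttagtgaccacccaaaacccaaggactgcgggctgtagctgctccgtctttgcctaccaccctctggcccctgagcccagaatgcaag
Scn4b, chr9:45138374-45138623, plus strand: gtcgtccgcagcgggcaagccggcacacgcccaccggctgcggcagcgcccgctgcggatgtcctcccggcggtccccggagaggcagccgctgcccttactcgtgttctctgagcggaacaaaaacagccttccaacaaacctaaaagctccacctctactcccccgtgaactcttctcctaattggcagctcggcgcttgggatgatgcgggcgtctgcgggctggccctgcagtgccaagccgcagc
Scn7a, chr2:66784911-66785160, minus strand: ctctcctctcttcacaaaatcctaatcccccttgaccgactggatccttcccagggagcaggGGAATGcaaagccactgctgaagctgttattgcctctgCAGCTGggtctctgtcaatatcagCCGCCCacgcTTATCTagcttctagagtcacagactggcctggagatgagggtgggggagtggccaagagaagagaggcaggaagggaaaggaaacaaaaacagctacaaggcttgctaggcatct
Cacna2d1, chr5:15934441-15934690, plus strand: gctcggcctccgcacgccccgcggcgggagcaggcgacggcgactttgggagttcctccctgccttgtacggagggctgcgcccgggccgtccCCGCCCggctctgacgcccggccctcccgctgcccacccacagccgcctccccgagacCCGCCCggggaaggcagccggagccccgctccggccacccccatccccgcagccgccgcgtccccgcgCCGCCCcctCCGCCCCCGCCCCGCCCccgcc
The Cacna2d1 window held 6 GC boxes and was 82.4% G or C, against a median of 52% over all windows. The Scn7a window held 1 E-box, 1 M-CAT element, 1 GATA site and 1 GC box at 53.2% G or C. The windows of Scn4a (61.6%) and Scn4b (66%) held none of the 5 letter strings. Of 27025 promoters, counting 1 per gene, 66.0% held an E-box, 12.6% an M-CAT element, 10.3% a GATA site, 32.9% a GC box and 13.0% a TATA box. A match describes letters only, and the first 25 bases after the RefSeq start were found in a GENCODE transcript for Scn4b, Scn7a and Cacna2d1 but not for Scn4a.

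Levels between genes were compared per kilobase of exon, since longer transcripts collect more reads. In 3-month air ventricles Scn4b was first, at 24.2 ± 2.54 CPM per kilobase (SD, n = 4), followed by Cacna1c at 18.7 ± 3.15. Their libraries overlapped, from 21.8 to 27.3 for Scn4b and from 14.7 to 22.1 for Cacna1c. Scn4a, at 8.22 ± 0.728, and Cacna2d1, at 8.19 ± 1.25 CPM per kilobase, did not differ beyond their spread.

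Cacnb2 followed at 6.11 ± 0.674 CPM per kilobase in 3-month air, then Cacna1g at 3.94 ± 0.163 and Scn7a at 3.36 ± 0.355. The highest Scn7a library, at 3.73, lay just under the lowest Cacna1g library, at 3.74. Cacna1h was last, at 0.220 ± 0.0744 CPM per kilobase, and rested on 17 to 72 counts per library over the whole series, against 2848 to 7819 for Cacna1c. The exonic length of Cacna1c, 21191 bases, is the union over its transcripts, so that its level per kilobase depends on which of them are present. Over all 23 libraries the order was the same except that Scn4a, with a mean of 5.14 CPM per kilobase, came after Cacna2d1 and Cacnb2.

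**Figure D1:**
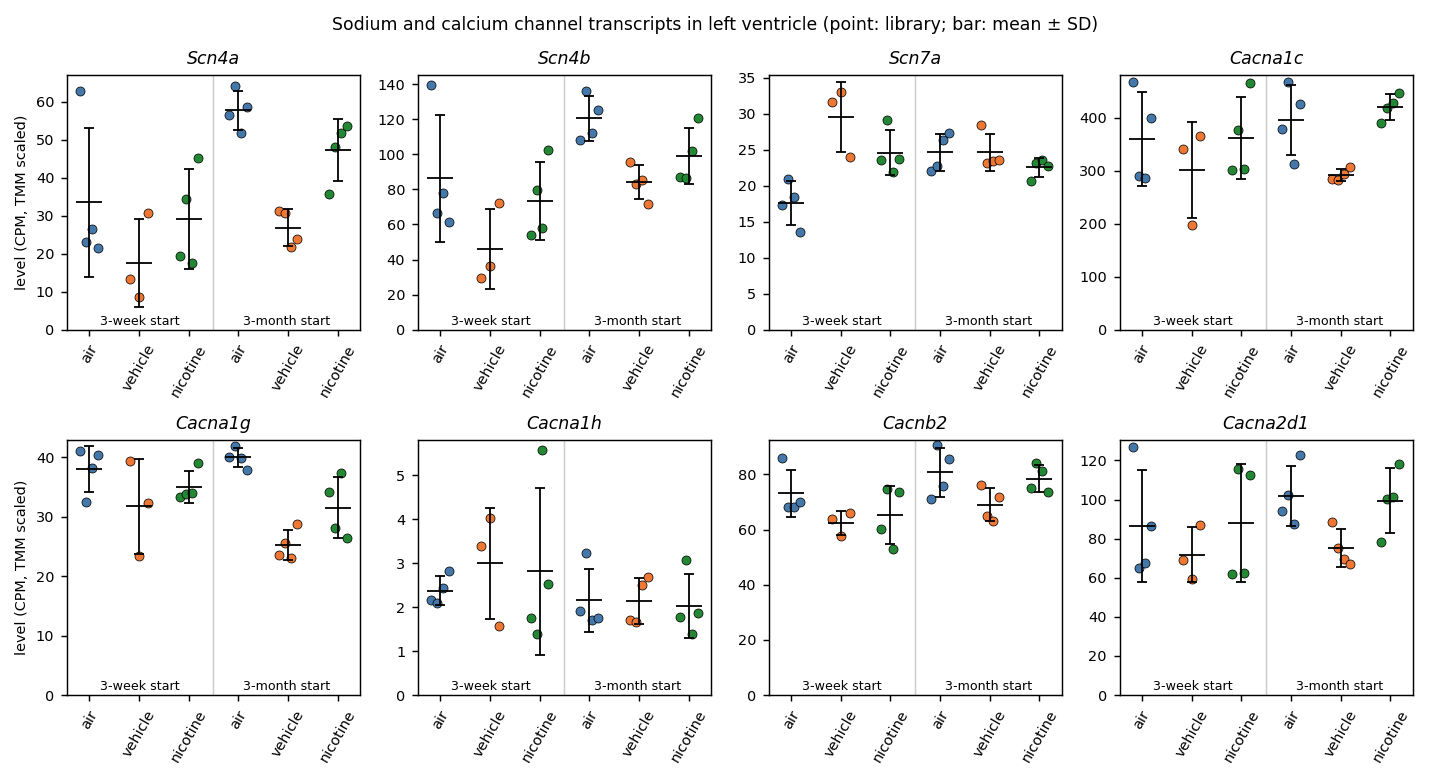
Level of each of the 8 channel genes in CPM scaled by TMM (vertical axes from 0, a different scale in each panel) in the 6 groups. Points are libraries, horizontal bars means and error bars SDs. In the 3-month start all 4 vehicle libraries lie below all 4 air libraries for Scn4a, Scn4b, Cacna1c and Cacna1g, and in the 3-week start all 3 vehicle libraries lie above all 4 air libraries for Scn7a.

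Vehicle against air at the 3-month start asks what the aerosol without nicotine does in mice exposed from adulthood. Scn4a had the largest difference among the 8. Its level in CPM (counts scaled to a common library size) was 56.5, 64.3, 51.9 and 58.6 in air libraries 1, 2, 4 and 5, and 31.3, 30.9, 21.7 and 23.8 in vehicle libraries 1 to 4. The groups did not overlap, and the vehicle mean was 46.5% of the air mean, a log2 fold change of -1.10 ± 0.35 (SE) in the fit of all 23 libraries. Of 10 skeletal muscle markers, 4 passed the filter on low counts (Tnnt3, Tnni2, Mylpf and Atp2a1), with a summed level of 2.36 to 4.01 CPM in air and 3.43 to 3.54 CPM in vehicle. The fit of all libraries called 0% of all genes here, so its 0 of 4 cannot show that these markers were unchanged. In the 3-month libraries alone 3 were measured and 0 passed, where 18.7% of all genes were called. The other 6 of the 10 markers, Myh1, Myh2, Myh4 and Actn3 among them, had at most 4 counts in any library. The part of muscle of this kind in the Scn4a difference was not tested.

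Cacna1g was the most even of the 8 within air, at 40.1, 41.9, 39.9 and 37.9 CPM, and read 23.6, 25.5, 23.1 and 28.8 CPM in the vehicle libraries. Again the groups did not overlap, with a vehicle mean at 63.2% of the air mean and a log2 fold change of -0.66 ± 0.13. Of 5 measured markers of conduction and nodal cells, 1 fell with vehicle when the 3-month libraries were fitted alone, Hcn4 (log2 fold change -0.56, adjusted p = 0.0104), where 11.1% of all genes fell, and its part in the Cacna1g difference was not tested. Scn4b was 108, 136, 112 and 125 CPM in air and 95.5, 83.2, 85.3 and 71.9 CPM in vehicle, a log2 fold change of -0.52 ± 0.26 with no overlap.

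Among L-type subunits, the pore gene Cacna1c read 378, 468, 312 and 425 CPM in air and 284, 283, 293 and 307 CPM in vehicle, so that the lowest air library lay just above the highest vehicle library. Its log2 fold change was -0.44 ± 0.18. Cacna2d1 was 94.0, 102, 87.5 and 123 CPM in air and 88.4, 75.4, 69.6 and 66.9 CPM in vehicle, with 1 vehicle library inside the air range and a log2 fold change of -0.44 ± 0.22. Cacnb2 overlapped more, at 80.8 ± 8.91 CPM in air and 69.1 ± 6.04 in vehicle (n = 4 each). Scn7a (24.7 ± 2.60 and 24.7 ± 2.56 CPM) and Cacna1h (2.15 ± 0.726 and 2.14 ± 0.533 CPM) had log2 fold changes of 0.00 ± 0.13 and -0.01 ± 0.37.

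In this comparison 7 of the 8 log2 fold changes were below 0, with a median of -0.44 against 0.01 over all genes tested. For 4 of the 8 all vehicle libraries were below all air libraries, against 11.6% of all genes. In the fit of all 23 libraries, edgeR's quasi-likelihood test with Benjamini-Hochberg adjustment over the 15500 genes called 0 genes, that is 0% of those tested, although 2200 had an unadjusted p under 0.05. Cacna1g had the smallest p of the 8 (adjusted p = 0.102), the 8th smallest over all genes, and DESeq2 in the same design put it at an adjusted p of 0.00331 and called 1 of the 8 and 0.555% of all genes.

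Some atrial cardiomyocyte markers also moved with these groups, with overlap. Of 7 markers 6 passed the filter, with a mean log2 level of 2.11 to 5.18 in air, 1.44 to 3.25 in vehicle and 1.48 to 3.97 in nicotine. Myl7 averaged 16.4 ± 17.1 CPM in air and 0.830 ± 1.62 CPM in vehicle, and Myl4 24.9 ± 25.3 and 3.06 ± 2.43 CPM. Of the 6, 2 had positive log2 fold changes with vehicle, Stard10 and Nppa, the latter at 154 ± 66.3 and 159 ± 27.7 CPM. Over the 23 libraries the 8 channel genes had r of 0.07 (Scn4b) to 0.36 (Cacna1h) with the atrial markers. In the fit of all libraries 0 of the 6 passed, where 0% of all genes were called. In the 3-month libraries alone Sln fell (adjusted p = 0.0247) and Stard10 rose (adjusted p = 0.0230), where 18.7% of all genes were called. Their part in the differences of the 8 channel genes was not tested.

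The fit of all libraries takes a single estimate of spread from the noisier 3-week and the more even 3-month libraries together. When the 12 libraries of the 3-month start were fitted alone, 5 of the 8 genes fell with vehicle, against 11.1% of the 14526 genes tested in that direction and 18.7% in either. By edgeR in that fit the adjusted p-values were 0.000594 for Scn4a, 0.00113 for Cacna1g, 0.00531 for Cacna1c, 0.00542 for Scn4b and 0.0317 for Cacna2d1. Cacnb2, at a log2 fold change of -0.22, missed the threshold with an adjusted p of 0.0749. The calls of Scn4a, Scn4b, Cacna1c and Cacna1g held without any 1 of the 8 libraries compared, with adjusted p-values up to 0.0218. That of Cacna2d1 was lost without air library 2 or 5 or vehicle library 2, 3 or 4, with adjusted p-values of 0.0734 to 0.0943, and Cacnb2 passed without air library 1 (0.0401) or vehicle library 1 (0.0332).

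**Figure D2:**
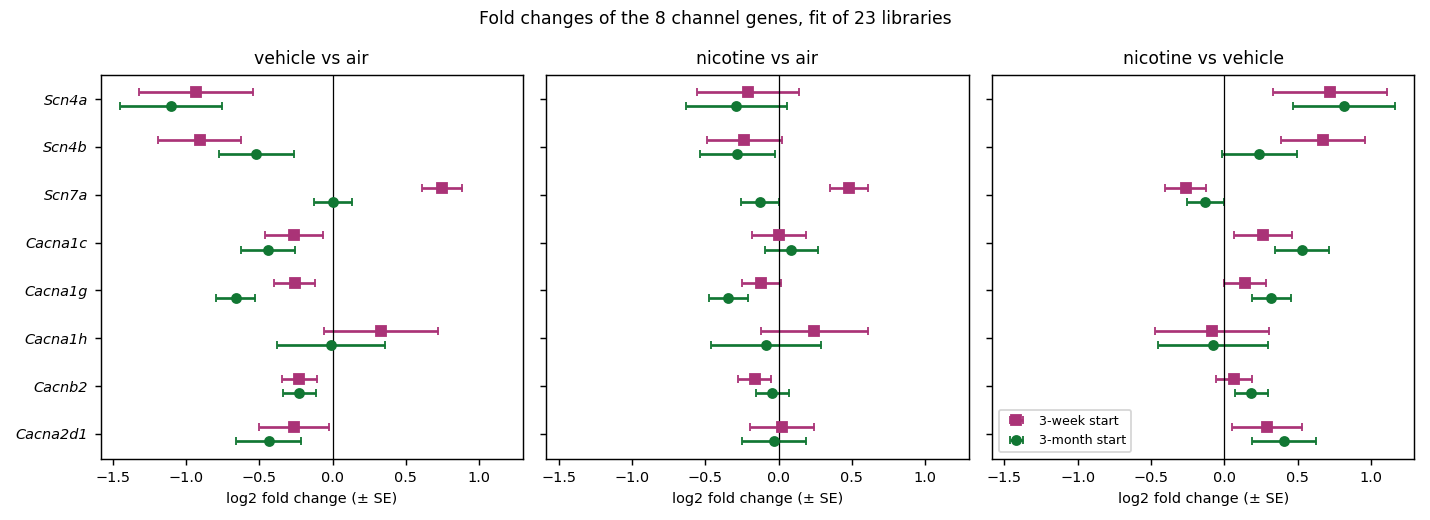
Log2 fold changes (points) with their standard errors (bars) of the 8 channel genes in the fit of 23 libraries, for vehicle against air, nicotine against air and nicotine against vehicle. Squares are the 3-week start and circles the 3-month start. Scn7a stands at 0.75 and 0.48 for vehicle and nicotine against air at the 3-week start, and Scn4a at -0.93 and -1.10 for vehicle against air at the 3-week and 3-month starts.

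The libraries also differed in how their expression depended on gene length, and this moved with the same genes. For each library, the length trend was the rank correlation across genes between a gene's deviation from its own mean and its exonic length. It was 0.0901 to 0.305 in 3-month air, -0.244 to -0.111 in 3-month vehicle and 0.000844 to 0.324 in 3-month nicotine, so that all 4 vehicle libraries were below the other 8 of that start. At the 3-week start it was -0.0640 to 0.267 in air, -0.277 to 0.186 in vehicle and -0.346 to 0.211 in nicotine.

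Over the 23 libraries the log2 level of Cacna2d1 had a Pearson r of 0.89 and a Spearman rho of 0.90 with the length trend, each with a permutation p of 1e-05, the smallest that 100000 resamples can give. Scn4a had r = 0.85 and rho = 0.86, Cacna1c r = 0.82 and rho = 0.84, Cacnb2 r = 0.81 and rho = 0.79, and Scn4b r = 0.74 and rho = 0.80. Adjusted over the 10 relations computed, the permutation p-values of these 5 genes were at most 4e-05 for r and 2e-05 for rho. The trend is drawn from the lengths of all genes, and these 5 have 4982 to 21191 exonic bases. Long genes as a class follow it by definition, so these p-values cannot show a relation particular to the channel genes. The share of all genes with such an r is not given here. Without the 2 libraries farthest from the median trend, their r was 0.73 to 0.89. Within the starting ages it was 0.76 to 0.89 over the 11 libraries of the 3-week start and 0.74 to 0.89 over the 12 of the 3-month start. Within groups, after subtracting each group's mean, r was 0.75 to 0.89, and all libraries share the annotation and the scaling.

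The T-type genes and Scn7a had weaker relations with the trend than these 5. For Cacna1g r was 0.64 over the 12 libraries of the 3-month start, 0.45 over the 11 of the 3-week start and 0.24 within groups. Over all 23 libraries the values were as follows. Cacna1g had r = 0.44 (permutation p = 0.0367, adjusted p = 0.0525) and rho = 0.41 (permutation p = 0.0533), Cacna1h r = -0.41 (permutation p = 0.0507) and Scn7a r = -0.17 (permutation p = 0.456). When a smooth offset for exonic length was added to the fit of the 3-month libraries alone, a choice made after seeing the data, 3 of the 8 genes fell with vehicle and 14.5% of all genes were called. These were Scn4a (log2 fold change -1.03, adjusted p = 0.000574), Cacna1g (-0.54, adjusted p = 0.00446) and Scn4b (-0.49, adjusted p = 0.00817). Cacna1c, at -0.24, and Cacna2d1, at -0.29, then had adjusted p-values of 0.0782 and 0.0615 by edgeR. What part the length trend has in the differences was not tested further.

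**Figure D3:**
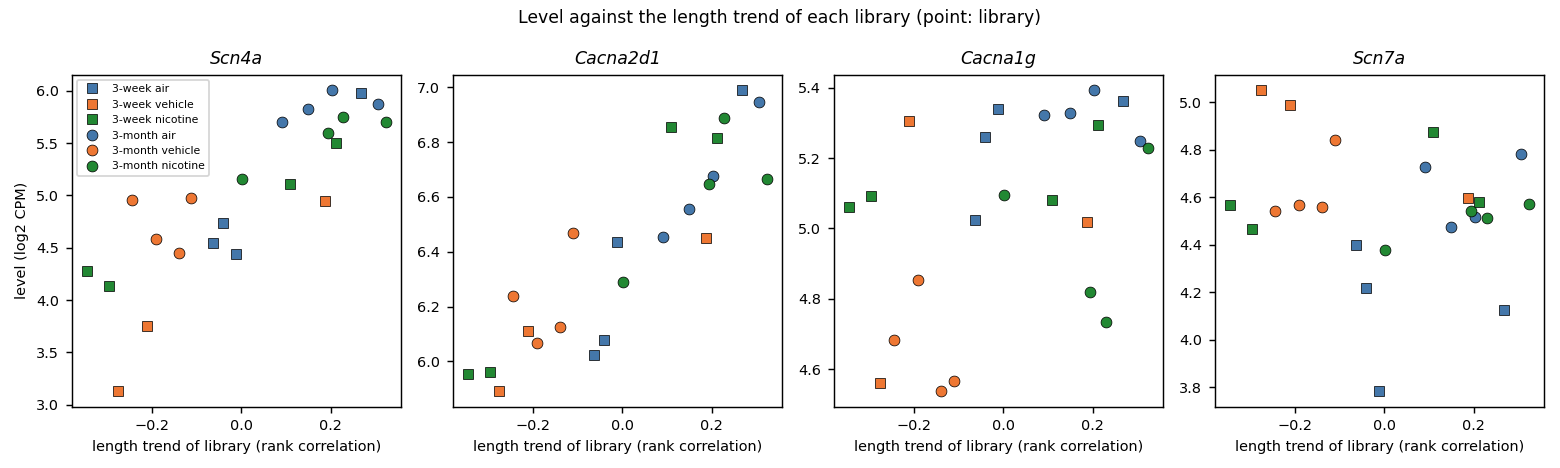
Log2 CPM of Scn4a, Cacna2d1, Cacna1g and Scn7a in each of the 23 libraries (points) against the length trend of the library, the rank correlation across genes of deviation from the gene mean with exonic length. Squares are the 3-week and circles the 3-month start, with air in blue, vehicle in orange and nicotine in green. Scn4a and Cacna2d1 are higher where the trend is higher (r = 0.85 and 0.89), whereas Scn7a has r = -0.17.

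Nicotine against vehicle at the 3-month start asks what nicotine adds to the aerosol, and it shares its vehicle libraries with the comparison above. Scn4a was 35.6, 48.2, 52.0 and 53.8 CPM in nicotine libraries 1 to 4, all above the highest vehicle library at 31.3. Cacna1c was 389, 418, 427 and 447 CPM, all above 307 CPM, the highest vehicle library. Their log2 fold changes were 0.82 ± 0.35 and 0.53 ± 0.18 in the fit of all libraries. For 2 of the 8 all nicotine libraries were above all vehicle libraries, against 12.2% of all genes.

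The fit of all libraries called 0% of genes here (1889 had an unadjusted p under 0.05), whereas the 3-month libraries alone gave 2 of the 8 higher with nicotine, against 10.2% of all genes higher and 16.6% called in either direction. By edgeR in that fit the adjusted p was 0.00217 for Scn4a and 0.00277 for Cacna1c, and both calls held without any 1 library and with the length offset (0.00358 and 0.0153). Cacna1g at 31.5 ± 5.09 CPM and Cacna2d1 at 99.5 ± 16.5 CPM in nicotine overlapped with vehicle and missed the threshold, both at an adjusted p of 0.0554. Scn4b (99.1 ± 16.1 CPM) and Cacnb2 (78.4 ± 4.95 CPM) also overlapped, with log2 fold changes of 0.22 and 0.16.

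Nicotine against air at the 3-month start gave small differences, from -0.34 for Cacna1g to 0.09 for Cacna1c on the log2 scale. Cacna1g was 34.1, 28.1, 37.4 and 26.5 CPM with nicotine, all below the lowest air library at 37.9 CPM, an arrangement in this direction that 1.71% of all genes had. Its log2 fold change of -0.34 ± 0.13 did not pass in the fit of all libraries (adjusted p = 0.9998, 0% of genes called, 408 with an unadjusted p under 0.05) or in the 3-month libraries alone (adjusted p = 0.371, 0.0482% called). The authors' deposited table gave Cacna1g a log2 fold change of -0.35 with an adjusted p of 0.256. The other 7 genes overlapped between nicotine and air, and the mean of Cacna1g in nicotine lay between those of vehicle and air.

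At the 3-week start, vehicle against air asks the same of mice exposed from weaning age, and the gene that stood out was Scn7a. Its level was 17.3, 21.0, 18.5 and 13.6 CPM in air libraries 1, 2, 4 and 5, and 31.6, 33.1 and 24.0 CPM in vehicle libraries 1, 2 and 4. All vehicle libraries lay above all air libraries, as for 5.06% of all genes, and Scn7a rose by a log2 fold change of 0.75 ± 0.14 (edgeR adjusted p = 0.0141), to 168% of the air mean. It had the 14th smallest p of 15500 genes.

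Scn4b was 140, 66.3, 78.1 and 61.6 CPM in air and 29.5, 36.3 and 72.2 CPM in vehicle. It fell by 0.91 ± 0.28 on the log2 scale (edgeR adjusted p = 0.0386), though its groups overlapped: vehicle library 4 lay inside the air range. So 1 of the 8 genes rose and 1 fell, when 9.27% of all genes rose and 6.92% fell, 16.2% in all. Vehicle libraries 1 and 2, low in Scn4b, had length trends of -0.211 and -0.277, and vehicle library 4 had 0.186. Over the 3-week libraries Scn4b had r = 0.80 with the trend. A length offset in the fit of all libraries left the Scn4b call in place, and the part of the trend in it was not tested further. Scn4a was spread widely, at 62.9, 23.2, 26.6 and 21.5 CPM in air and 13.3, 8.60 and 30.7 CPM in vehicle, and its log2 fold change of -0.93 ± 0.39 missed the threshold (adjusted p = 0.0907).

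The other 5 genes did not pass. Cacna1c was 361 ± 88.6 CPM in air (n = 4) and 301 ± 90.4 in vehicle (n = 3), Cacna1g 38.0 ± 3.90 and 31.7 ± 7.99, and Cacna2d1 86.4 ± 28.8 and 71.8 ± 14.2. Cacnb2, at 73.1 ± 8.65 and 62.4 ± 4.39 CPM, did not overlap between the groups, as for 4.19% of all genes in this direction, with a log2 fold change of -0.23 ± 0.12 (adjusted p = 0.178). Cacna1h had 2.38 ± 0.328 and 2.99 ± 1.27 CPM.

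Both 3-week calls rested on few libraries. Without air library 1 or without vehicle library 1, 0 of the 8 genes passed and 0% of all genes were called. Scn4b then had log2 fold changes of -0.57 and -0.67 (edgeR adjusted p = 0.165 and 0.296), and it also missed the threshold without air library 5 (0.0602) or vehicle library 2 (0.165). For Scn7a the log2 fold changes were 0.74 and 0.68 with these libraries left out in turn, and the adjusted p-values 0.0585 and 0.247. When the 11 libraries of the 3-week start were fitted alone, 0 of the 8 and 0 genes in all passed, with an adjusted p of 0.202 for Scn7a and 0.206 for Scn4b. Pairs of libraries known from earlier results to stand apart were also left out together. Without air libraries 1 and 5, Scn7a had a log2 fold change of 0.56 and Scn4b of -0.66 (adjusted p = 0.258 and 0.306). Without vehicle libraries 1 and 2 they had 0.46 and -0.24 (adjusted p = 1 for both), the lone vehicle library being assumed to vary like the other groups.

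In nicotine libraries of the 3-week start Scn7a was 23.5, 29.2, 21.97 and 23.8 CPM, all above the highest air library at 21.0 CPM. Of all genes 2.57% had this arrangement in this direction. The comparison shares its air libraries with vehicle against air, so it is not an independent repeat. The log2 fold change of Scn7a against air was 0.48 ± 0.13, which missed the threshold by edgeR (adjusted p = 0.0762) while 0.813% of all genes were called. DESeq2 gave an adjusted p of 0.0348, edgeR without air library 2 gave 0.0264 and without air libraries 1 and 5 gave 0.915 at a log2 fold change of 0.30, and the authors' deposited table gave a log2 fold change of 0.47 with an adjusted p of 0.178. None of the other 7 passed, with log2 fold changes from -0.23 for Scn4b to 0.24 for Cacna1h and overlapping groups. Nicotine against vehicle at the 3-week start called 0% of all genes by edgeR, with 2992 at an unadjusted p under 0.05. Of the 8 genes, 1 had an unadjusted p under 0.05, Scn4b at a log2 fold change of 0.67 ± 0.28 (adjusted p = 0.214).

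Markers of Schwann cells and neurons were higher in the same 3-week groups as Scn7a. Of 12 listed markers, 8 passed the filter, and all 8 had positive log2 fold changes with vehicle (median 0.56) and with nicotine (median 0.54) against air. With vehicle 2 of the 8 rose, where 9.27% of all genes did, among them the Schwann cell cadherin gene Cdh19 (0.79, adjusted p = 0.0274). With nicotine 0 passed, where 0.813% of all genes were called. With the 3-week libraries fitted alone, 0 genes passed in either comparison. The summed level of the 8 was 24.2 to 29.99 CPM in 3-week air, 30.9 to 52.2 in vehicle and 31.6 to 48.7 in nicotine, whereas Snap25 and Th had at most 1 count. Across the 23 libraries Scn7a and the mean log2 level of these markers had r = 0.32 (permutation p = 0.135) and rho = 0.22 (permutation p = 0.316), and r was -0.03 within groups. Their part in the Scn7a difference was not tested.

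**Figure D4:**
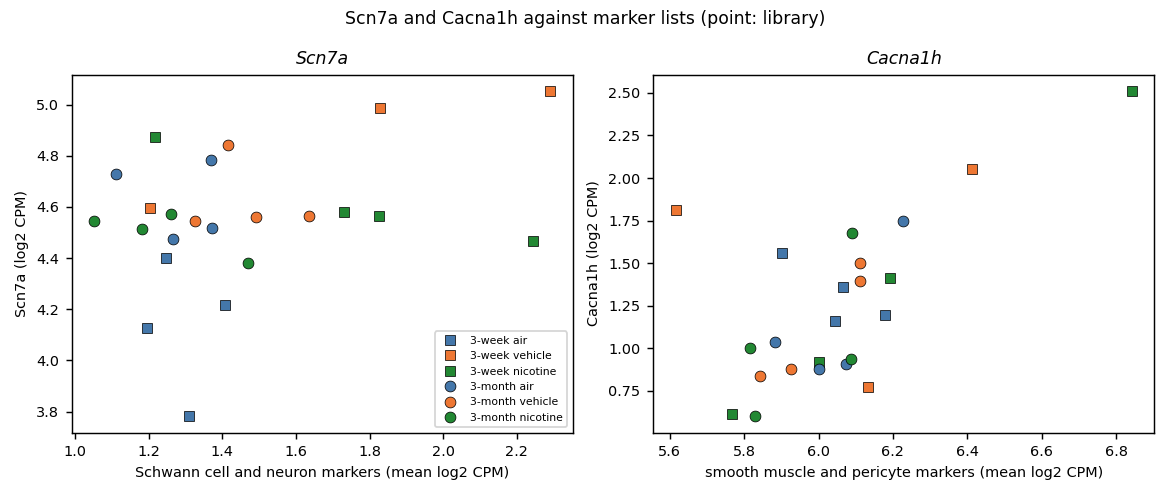
Left, log2 CPM of Scn7a against the mean log2 CPM of the measured Schwann cell and neuron markers; right, log2 CPM of Cacna1h against that of smooth muscle and pericyte markers, in each of 23 libraries (points). Squares are the 3-week and circles the 3-month start, with air in blue, vehicle in orange and nicotine in green. The 3 lowest Scn7a libraries are 3-week air libraries, and Cacna1h and its marker list have r = 0.64.

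Between air ventricles of the 2 starting ages, Scn7a had the smallest p of the 8 genes, though it did not pass. Scn7a was 22.1 to 27.4 CPM in 3-month air against 13.6 to 21.0 in 3-week air, with no overlap, an arrangement that 2.15% of all genes had in that direction. Its log2 fold change of 0.48 ± 0.13 missed the threshold (adjusted p = 0.208), and edgeR called 0.00645% of all genes. The 3-week air libraries are those of the comparisons above. Scn7a averaged 17.6 CPM in them and 22.6 to 29.6 CPM in the other groups. Scn4a was 0.79 ± 0.35 higher on the log2 scale in 3-month air (adjusted p = 0.503), with overlap through 3-week air library 1.

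The effects at both ages were also compared directly, with the vehicle taken as the same at both. These differences use the same 3-week air libraries once more. The vehicle effect on Scn7a at the 3-week start minus that at the 3-month start was 0.74 ± 0.19 on the log2 scale (edgeR adjusted p = 0.205, 0% of all genes called, 1861 with an unadjusted p under 0.05). DESeq2 gave an adjusted p of 0.0416 and limma's voom with sample quality weights 0.00744, and edgeR without 3-week vehicle library 4 gave 0.0129, when these called 0.523%, 3.85% and 9.3% of all genes. Without any other 1 library, edgeR gave adjusted p-values of 0.063 to 0.656, the highest without 3-week vehicle library 1, and with the compared groups alone 0.408. The same difference of the nicotine effect was 0.61 ± 0.18 (adjusted p = 0.170, 0.135% of all genes called). For Cacna1g the vehicle effect differed by 0.40 ± 0.19 (adjusted p = 0.416), and for Scn4a by 0.17 ± 0.52 (adjusted p = 0.911), so that a difference between ages was not detectable for them at this spread.

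Within the set, Scn4a and Scn4b tracked each other most closely over the 23 libraries, with a Pearson r of log2 CPM of 0.93. Cacna2d1 had r = 0.84 with Scn4a and 0.83 with Cacna1c, and Cacnb2 had r = 0.84 with Scn4a and 0.80 with Cacna2d1. Scn7a and Cacna1h had r between -0.50 and -0.02 with every other member. These values describe libraries that share the length trend given above, and carry no test.

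Among 11396 other genes whose mean log2 CPM was 1 or more, those most like Scn4a over the 23 libraries were Ahcyl1 (r = 0.96), Phkb (0.95) and Fam210a (0.95), and those most like Scn4b were Me1, Vwa8 and Iqgap2 (each 0.95). Cacna2d1 was most like Ubr3 (0.97), Nebl (0.96) and Sgcd (0.96), Cacna1c like Dennd4b (0.95), Camk2a (0.94) and Ralgapa2 (0.94), and Cacnb2 like Clec16a (0.91), Arid1b (0.91) and Slc12a7 (0.90). Lower values were found for Cacna1g, led by the potassium channel gene Kcnh2 (0.81), Gal3st3 (0.80) and Gramd4 (0.79), and for Scn7a, led by Fmr1 (0.80), Phip (0.78) and Smyd4 (0.78).

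Cacna1h was most like Mylk (0.86), which encodes a myosin light chain kinase, and Tpm2 (0.83) and Myl9 (0.79), which encode contractile proteins found in smooth muscle. The highest Cacna1h library, 3-week nicotine library 5 at 5.57 CPM, also had the highest mean log2 level of 8 smooth muscle and pericyte markers, 6.84 against a range of 5.62 to 6.84 over all libraries. Over the 23 libraries Cacna1h and these markers had r = 0.64 (permutation p = 0.00147) and rho = 0.51 (permutation p = 0.0143), with adjusted p-values of 0.00245 and 0.0238. Without the 2 libraries farthest from the median of the markers r was 0.71, and it was 0.59 over the 3-week and 0.75 over the 3-month libraries. The relation was examined after the likeness to Mylk was seen in the search of 11396 genes. The adjustment covers only the 10 relations computed and not that search, so these p-values are no independent test.

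Relatives of the 8 genes were measured alongside them. Of 10 other sodium channel subunits 6 passed the filter. None of the 6 passed the test in any contrast of the fit of all libraries, where 0% to 16.2% of all genes were called. In the 3-month libraries alone 1 of the 6, Scn10a, was higher with nicotine than with vehicle (log2 fold change 0.58, adjusted p = 0.0365), where 10.2% of all genes were. At the 3-week start Scn10a was lower with nicotine than with vehicle in the fit of all libraries (-0.60, adjusted p = 0.168). It had 32 to 96 counts per library. Of 21 other calcium channel subunits 9 passed the filter. Among them the beta subunit genes Cacnb1 (0.40, adjusted p = 0.0357) and Cacnb3 (0.88, adjusted p = 0.0485) rose with vehicle at the 3-week start, 2 of 9 where 9.27% of all genes rose. When the 3-week libraries were fitted alone, 0 genes passed there. In the 3-month libraries alone, where 11.1% of all genes fell with vehicle, 2 of the 9 did, Cacna2d2 (-0.86, adjusted p = 0.00816) and Cacna1s (-0.47, adjusted p = 0.0489). Of the 9, 1 was higher with nicotine than with vehicle, Cacna2d2 (0.70, adjusted p = 0.0291), where 10.2% of all genes were.

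Cacnb2 took 54.1% to 62.8% of the summed level per kilobase of the 4 beta subunit genes in 3-month air and 49.5% to 60.7% in 3-month vehicle. At the 3-week start the share was 49.5% to 62.2% in air, 35.0% to 48.4% in vehicle and 39.4% to 55.8% in nicotine, so that all 3 vehicle libraries lay below all 4 air libraries. Depth cancels in a share within 1 library, but exonic lengths and the length trend of the library can enter it. In 3-week vehicle, libraries 1 and 2 had shares of 35.0% and 38.5% at length trends of -0.211 and -0.277. Vehicle library 4 had 48.4% at a trend of 0.186. Neither the part of the trend in these shares nor their difference between groups was tested.

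Genes that anchor or tune the channels were counted in 2 lists. Of 12 measured sodium channel partners 0 passed in any contrast of the fit of all libraries, where 0% to 16.2% of all genes were called. For vehicle against air at the 3-month start that share was 0%. In the 3-month libraries alone 5 fell with vehicle, against 11.1% of all genes, with a list median of -0.29 against 0.01 over all genes. They included the kinase gene Camk2d (-0.34, adjusted p = 0.00420), the scaffold gene Dlg1 (-0.34, adjusted p = 0.00992) and the ankyrin gene Ank3 (-0.44, adjusted p = 0.0100). Of the 12, 5 were higher with nicotine than with vehicle, against 10.2% of all genes, led by Gpd1l (0.52, adjusted p = 0.00415), Camk2d (0.35, adjusted p = 0.00417) and Ank3 (0.40, adjusted p = 0.0196). The comparisons share the vehicle libraries, whose length trends all lay below those of air and nicotine at that start.

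Of 20 measured calcium channel regulators and dyad anchors, 2 fell with vehicle at the 3-week start in the fit of all libraries, where 6.92% of all genes fell: Jph2, the junctophilin that holds the surface membrane close to the sarcoplasmic reticulum (-0.56, adjusted p = 0.0386), and Prkaca, a catalytic subunit of protein kinase A (-0.50, adjusted p = 0.0272). With nicotine at the 3-week start 1 fell, Gem, an inhibitor of L-type channels (-1.41, adjusted p = 0.0489), where 0.813% of all genes were called. For vehicle and for nicotine against air, 0 genes passed when the 3-week libraries were fitted alone. In the 3-month libraries alone 3 of the 20 fell with vehicle, against 11.1% of all genes, Ncs1 (-0.50), Sorbs2 (-0.42) and Jph2 (-0.36). Another 2 rose, Bin1 (0.46, adjusted p = 0.0152) and Stac3 (adjusted p = 0.0299), with a list median of -0.01. Of all genes 18.7% were called in either direction. Against vehicle, 2 of the 20 were then higher with nicotine, Sorbs2 (0.47) and Jph2 (0.35), near the 10.2% of all genes that were. Bin1 was lower (-0.44), and 16.6% of all genes were called in either direction.

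The 10 genes of calcium release and removal act on the calcium that these channels admit. In the fit of all libraries Trdn rose (1.09, adjusted p = 0.0141) and Casq2 fell (-0.69, adjusted p = 0.0279) with vehicle at the 3-week start. Both encode proteins of the calcium release complex. In that comparison 9.27% of all genes rose and 6.92% fell, and 0 genes passed when the 3-week libraries were fitted alone. In the 3-month libraries alone 5 of the 10 fell with vehicle, against 11.1% of all genes, led by the calcium pump gene Atp2a2 (-0.75, adjusted p = 0.000967), the release channel gene Ryr2 (-1.08, adjusted p = 0.00190) and the exchanger gene Slc8a1 (-1.72, adjusted p = 0.00384), and 0 rose. Against vehicle, 5 of the 10 were higher with nicotine, where 10.2% of all genes were, led by Atp2a2 (0.74), Ryr2 (0.89) and Slc8a1 (1.68), and 1 was lower, Trdn (-0.30). All of these values share the vehicle libraries and their length trend.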

How the data were processed

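Left ventricle RNA was sequenced in 23 libraries. The authors deposited unnormalized counts of reads for 49315 genes. The submitters' processing notes name STAR 2.5.2b, Trimmomatic 0.36 and Subread 1.5.2, whose featureCounts made the counts. Genome build, gene annotation and strandedness of counting are not given in the sources used, so reads of genes overlapping on opposite strands may not be told apart. For nicotine against air, tables deposited by the authors hold log2 fold changes, p-values and a signal per library, the count divided by a size factor, which served only to check columns. 0 columns of counts had no sample. A deposited table of gene ontology terms was not used here. Gene IDs were looked up in GENCODE vM21 for symbols and for lengths of exons, and 49056 had a symbol.

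The counts were fitted with edgeR 4.0.16 (R 4.3.3), using filterByExpr (minimum count 10), TMM scaling and a robust quasi-likelihood fit of 6 groups with 17 residual degrees of freedom. Benjamini-Hochberg adjustment covered all genes tested, at a threshold of 0.05, and adjusted p-values are from this test unless another is named. Log2 CPM used a prior count of 2. Alternatives used RLE scaling, no filter, DESeq2 1.42.0, limma 3.58.1 voom with quality weights, a length offset (spline with 4 degrees of freedom), a replicate block, fewer groups and left-out libraries. The procedure was tested on simulated counts. Permutation tests were two-sided.

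The members, the gene lists and the alternatives were chosen with earlier results of these data known. The 8 members were named in every contrast, up to 3 genes per list and direction were named by smallest p, and for each member the 3 genes with the highest r. Libraries of a group were compared by chi-square over genes, and no pair agreed within sampling noise. Replicate numbers did not pair samples across groups. Results of some genes are not reported here.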

Additional observations from a re-analysis of the deposited data

Results flagged for a closer look

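In groups of 4 libraries, 3 of 40 gene and group combinations had 1 library whose gap to the others passed Dixon's critical value of 0.829, and chance gives about 1 in 20. Scn7a was 28.5 CPM in 3-month vehicle library 1, against 23.2 to 23.6 CPM in the other 3. Cacnb2 was 86.0 CPM in 3-week air library 1, against 68.0 to 69.98 CPM in the others. Cacna1g was 39.1 CPM in 3-week nicotine library 6, against 33.3 to 34.0 CPM in the others.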

How the results depend on the processing

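Under the alternatives 1528 member values were computed. Of these 126 changed sign, 115 of them uncalled values within 1 SE of 0, and 0 called values changed sign. The share of all genes called in the same fit stands in parentheses after each count. With vehicle against air at the 3-week start, 2 of the 8 genes passed (16.2%). The count was 5 by voom (37.7%), 1 without the filter on low counts (4.19%), and 0 (0%) with the compared groups alone, with the libraries of that age alone (also with the length offset), without 3-week air libraries 1 and 5, or without 3-week vehicle libraries 1 and 2. Leaving out 1 library gave 0 to 3 (0% to 44%). For the counts of 0 elsewhere, nicotine against air at the 3-week start gave 1 by DESeq2 (3.08%) and 0 to 1 without 1 library, the 1 without air library 2 (2.28%). Nicotine against vehicle gave 5 by voom (19%) and 0 to 2 without 1 library, the 2 without vehicle library 4 (30.3%). Vehicle against air at the 3-month start gave 5 with the compared groups alone (18.4%), with that age alone (18.7%) and by voom (17.6%), 1 by DESeq2 (0.555%), and 3 with the length offset in that age alone (14.5%). Without 1 library it gave 4 to 6 in that age alone (10.6% to 20.6%) and 0 in the fit of all libraries (0% to 0.00646%). Nicotine against vehicle gave 2 with the compared groups alone (15.8%) and with that age alone, without (16.6%) or with the length offset (11.7%), 3 by voom (19.1%), and 2 to 3 without 1 library of that age alone (8.53% to 18.9%). The contrast of air between ages gave 3 by voom (8.2%). The vehicle effect between ages gave 1 by DESeq2 (0.523%), 1 by voom (3.85%) and 0 to 1 without 1 library (0% to 9.3%). RLE scaling and the length offset in the fit of all libraries changed no call of the 8.

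Replicate numbers did not pair the samples (r of deviations -0.37 to 0.28). With the replicate block, 0 of the 8 genes passed for vehicle against air at the 3-week start (adjusted p = 0.0893 for Scn4b and for Scn7a), and Cacna2d1 was -0.026 for nicotine against vehicle. No block could be fitted for air between ages.

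Other sign changes, in log2 fold change, came with pairs of libraries left out. Without 3-week air libraries 1 and 5, vehicle against air was 0.047 for Cacna1c and 0.10 for Cacna2d1. Without 3-week vehicle libraries 1 and 2, it was 0.036 for Cacna1c and 0.034 for Cacna2d1. Nicotine against vehicle was then -0.039 for Cacna1c, -0.015 for Cacna2d1, -0.11 for Scn4a, -0.0023 for Scn4b and 0.0065 for Scn7a, and the vehicle effect on Scn4b differed between ages by 0.28. The cause was not tested. Depth limits Cacna1h, with 17 to 72 counts.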
